A study of Mus musculus with 32 samples.

Results

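Cytosolic ribosomal protein genes were followed through retinal differentiation of mouse embryonic stem cells (ESCs). Members were the rows of the deposited table whose symbol has the form Rpl or Rps with a number, or is Rpsa, Rplp0, Rplp1 or Rplp2, without pseudogene rows marked -ps. This gave 89 of 55492 rows, 36 named for the small subunit, 50 for the large subunit and 3 for its acidic stalk. The GENCODE M21 annotation of GRCm38 lists 83 of them as protein coding. It lists the other 6 (Rpl32l, Rpl6l, Rps12l1, Rps3a2, Rps3a3 and Rps4l) as pseudogenes. The symbols do not catch 4 further genes of the cytosolic ribosome, among them Fau, Rack1 and Rpl36al, which are given separately.

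Polyadenylated RNA was measured in 32 libraries, 2 for each of 4 cultures at days 0, 2, 4 and 6. WT is the Rx:GFP line. KO is the line labelled Mettl3 KO, Mettl3 being the gene of the methyltransferase that deposits N6-methyladenosine on mRNA. The cultures called no Dex and Dex are 1 line, labelled as overexpressing (OE) WT MTL3-GRBD in Mettl3 KO, that is METTL3 joined to a domain named GRBD, without or with 10 µM dexamethasone (Dex, a synthetic glucocorticoid). The study asks what nuclear METTL3 contributes to retinal development, and the 3 comparisons it implies at each day are KO against WT, no Dex against KO, and Dex against no Dex. Day 0 samples are labelled ESCs and the later ones organoids, which were grown with 0.1 µM AGN. The Dex samples of day 0 are labelled as treated, although the treatment protocol names Dex for 2, 4 and 6 days. The number of clones per line, the promoter of the transgene and whether duplicates were separate cultures are not stated. All p-values therefore measure the spread between these libraries, which may be technical, and no culture without the fusion protein received Dex.

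Each cytosolic ribosome holds 1 copy of nearly every ribosomal protein, apart from the stalk, and its genes are among the most strongly transcribed of a dividing cell. Their mRNAs typically begin with a 5′ terminal oligopyrimidine (TOP) tract, a C followed by C and T bases, through which mTOR and LARP1 set their translation. Myc drives transcription of many of them, together with RNA polymerase I and the factors that assemble ribosomes in the nucleolus. Some members have paralogues used in particular tissues, among them Rpl10l and Rpl39l in male germ cells and Rpl3l in striated muscle.

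The libraries had an estimated depth of 28.2 to 54.2 M fragments (M, 1000000). FPKM (fragments normalised to transcript length and to the mapped fragments of the library) followed each library's own mean fragment length, 284 to 308 nucleotides (nt), which matters for short mRNAs. The duplicates of WT day 0 stood apart. Their members differed by a median of 0.10 on the log2 scale, against 0.016 to 0.038 in the other 15 groups, and 17 members differed by more than 0.2. That pair held the shallowest library, which also had the longest fragments and the highest share of mitochondrial transcripts (12.2%). Mettl3 itself lay between 32.5 and 41.2 FPKM in WT libraries and between 34.9 and 43.8 FPKM in those labelled KO, and a value for the whole gene cannot check a small deletion. KO therefore means the libraries labelled KO throughout, in every direction given below. Differences were tested with limma on log2(FPKM + 1) over 16276 genes, with calls made where the Benjamini-Hochberg adjusted p was below 0.05. All log2 changes below are on that scale, where changes of weakly expressed genes come out too small, and ± is the standard error unless stated. All 89 members passed the filter on low values.

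Most members were among the strongly expressed genes of every library. Their mean over the 32 libraries had a median of 1896 FPKM, and 67 of the 89 exceeded 1000 FPKM. Rplp1, a stalk protein that helps recruit elongation factors, was highest with a mean of 7992 FPKM (chromosome 9) and ran from 5603 to 10121 FPKM. It was followed by Rps24 of the small subunit with a mean of 7009 FPKM, and the large-subunit gene Rpl13 with 6312 FPKM. Rps12 of the small subunit, with a mean of 5255 FPKM, was also among the highest. Rps12 and the next member, Rps15 (5250 FPKM), differed by less than the range of either across libraries. At the other end 7 members had means below 100 FPKM, namely Rpl29, Rpl10l, Rpl39l, Rps12l1, Rpl6l, Rpl3l and Rpl32l. Reads can be shared with processed pseudogenes. The table holds 319 rows named as pseudogenes of these genes, whose summed FPKM was 3.88% to 4.46% of the members' sum, and Rpl34-ps1 alone, with a mean of 1851 FPKM, lay above Rpl34 at 1559 FPKM. Among the members themselves, the processed pseudogene Rps3a2 had a mean of 1465 FPKM, above the protein-coding Rps3a1 at 1165 FPKM. Values of single members are uncertain to that extent.

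The start sites are shown because the TOP tract is what these mRNAs are known to share. RefSeq promoters of GRCm38.p6 matched 64 of the 89 members by symbol. At the annotated start base, 14 of these 64 genes (21.9%) had a C followed by at least 4 bases that are C or T, read on the gene's strand, against 3.01% of all 27025 genes with a promoter. Within 10 bases on either side, such a run began at 55.3% of the members' annotated starts and 30.7% of all starts. Capitals mark only a run at the annotated start in the windows below, each with 10 bases before that start and 20 from it. The first 5 have the run at the start and the last 4, among them 3 paralogues, do not. The 3 paralogues have an unmarked run that begins within 10 bases of the start.
Rpl35: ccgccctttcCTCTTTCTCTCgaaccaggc
Rps27: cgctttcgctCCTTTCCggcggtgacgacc
Rps15a: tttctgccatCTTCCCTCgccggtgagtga
Rplp2: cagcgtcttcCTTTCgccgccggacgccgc
Rps6: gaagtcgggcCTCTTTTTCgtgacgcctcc
Rps28: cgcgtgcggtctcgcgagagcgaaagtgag
Rpl10l: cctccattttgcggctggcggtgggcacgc
Rpl39l: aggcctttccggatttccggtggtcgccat
Rpl22l1: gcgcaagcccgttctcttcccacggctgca
In GRCm38.p6 they lie at chr2:39005112-39005141 (Rpl35, minus strand), chr3:90213629-90213658 (Rps27, minus), chr7:118116128-118116157 (Rps15a, minus), chr7:141447641-141447670 (Rplp2, plus) and chr4:86857348-86857377 (Rps6, minus). The last 4 lie at chr17:33824543-33824572 (Rps28, minus), chr12:66284382-66284411 (Rpl10l, minus), chr16:10170218-10170247 (Rpl39l, plus) and chr3:28805498-28805527 (Rpl22l1, plus). Rps28 has no such run at its annotated start and is among the members that moved most in some comparisons below. Whether the run bears on the changes of single members was not tested. The 14 genes with the run and the 50 without had medians of the same sign in most comparisons, and their difference was not tested. At day 6 they were 0.58 and 0.47 between no Dex and KO, and -0.22 and -0.18 between Dex and no Dex.

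The members' share of all FPKM moved with culture and day within a narrow band, between 18.2% and 23.9% of all FPKM in a library. In WT it was 18.2% and 19.4% in the day 0 libraries, 21.3% and 21.5% at day 2, 22.2% and 22.1% at day 4, and 19.5% in both libraries at day 6. KO libraries gave 19.51% and 19.95% at day 0, 21.4% and 21.6% at day 2, 20.7% and 20.8% at day 4, and 18.3% and 18.5% at day 6. In both lines the share was highest at an intermediate day, day 4 in WT and day 2 in KO. The no Dex libraries had 22.2% in both at day 0, 21.0% and 21.1% at day 2, 21.8% and 22.0% at day 4, and 23.9% in both at day 6. With Dex the share was 21.7% and 21.6% at day 0, 23.6% and 23.9% at day 2, 22.8% and 22.6% at day 4, and 20.9% and 21.1% at day 6. At day 6 the order from low to high was thus KO, WT, Dex and no Dex, with no overlap between libraries. Leaving out rows of mitochondrial transcripts kept that order, with 20.6% and 20.7% in KO, 21.4% in both WT libraries, 22.9% and 23.0% with Dex and 26.0% in both without it. The course over days depended on the scale. The summed FPKM without Dex was 236672 ± 368 at day 0 and 221226 ± 499 at day 6 (SD, n = 2), and 269582 and 207272 after median-of-ratios rescaling, so that it was lower at day 6 on both scales while the share was higher. In WT the sum was highest at day 2 (208946 ± 1520, against 207382 ± 384 at day 4), and rescaled it was 220620 at day 2 and 206758 at day 4. The order of the 4 cultures at day 6 was the same by share, sum and rescaled sum. In bulk samples, fewer cells of a type and less RNA per cell cannot be told apart.

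**Figure D1:**
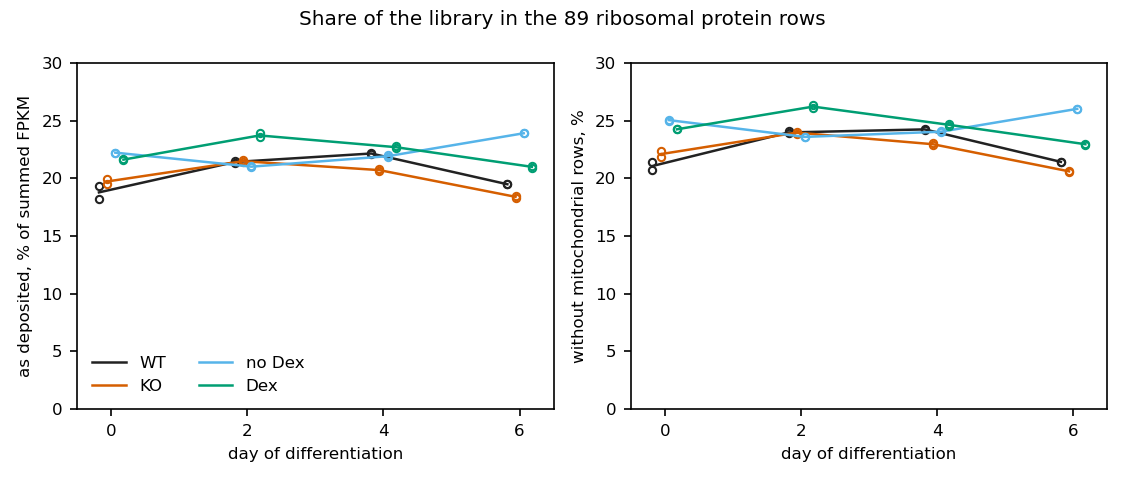
Summed FPKM of the 89 members as a percentage of all FPKM in the library (left) and of all FPKM without mitochondrial rows (right), by day. Circles are libraries and lines join group means; at day 6 no Dex (23.9%) lies above Dex, WT and KO (18.3% and 18.5%).

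Across the 16 groups single members moved little compared with other genes. The difference between a member's highest and lowest group mean had a median of 0.78 on the log2 scale, against 1.32 over all tested genes. It was below 1 for 84.3% of members and for 29.3% of all tested genes. The members that moved by more than 2 were Rpl10l (6.47), Rpl39l (6.27), Rps12l1 (4.88), Rps4l (3.19) and Rpl3l (2.15), 4 of them paralogues of the standard set. Of the 83 protein-coding members, 26 had their highest group mean in Dex day 2, 24 in no Dex day 0 and 24 in no Dex day 6. The lowest group mean was in KO day 6 for 41, in WT day 0 for 18 and in WT day 6 for 16.

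**Figure D2:**
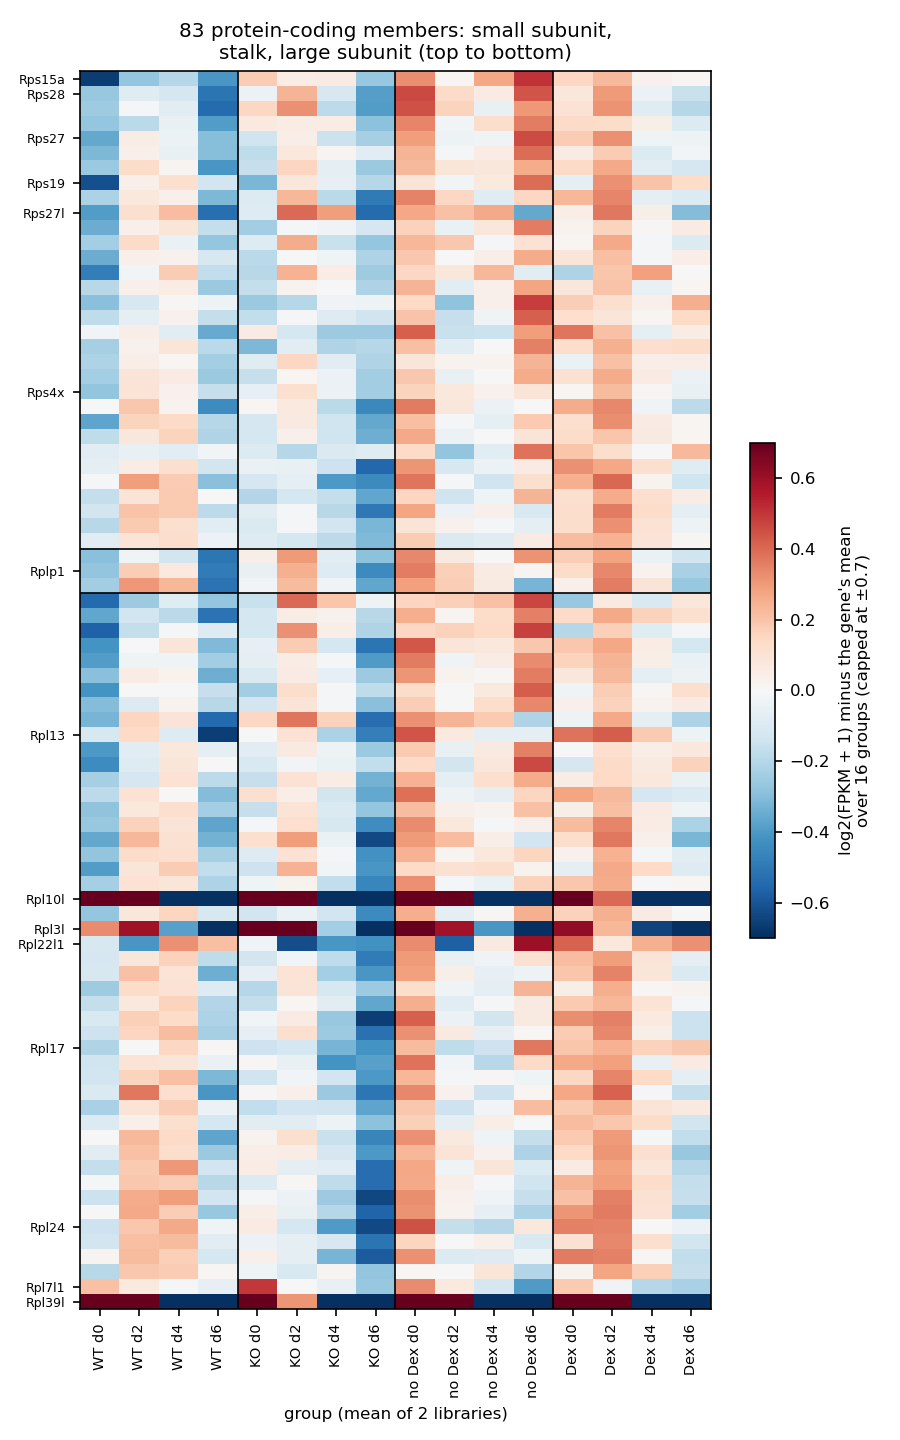
Group means of log2(FPKM + 1) of the 83 protein-coding members, each row centred on its mean over 16 groups and some rows labelled, for small-subunit, stalk and large-subunit genes; colours are capped at ±0.7. Most rows are red in no Dex day 0 and Dex day 2 and blue in KO day 6, while Rpl10l and Rpl39l pass the cap because they fell over the days.

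Differentiation was described first by day 6 against day 0 in each culture. In WT 28 members were called higher and 33 lower, with a median of 0.01 (over all tested genes 43.6% were called higher, 34.5% lower and the median was 0.09). In KO 6 were higher and 73 lower, with a median of -0.33 (all genes 45% higher, 35.4% lower). Without Dex 22 were higher and 51 lower, with a median of -0.16 (all genes 48% higher, 33.9% lower), and with Dex 9 were higher and 62 lower, with a median of -0.20 (all genes 46.4% higher, 34% lower). These splits depend on scaling. After median-of-ratios rescaling, which moved the all-gene median by up to 0.203 in these 18 contrasts, they were 9 higher and 60 lower in WT, 1 and 80 in KO, 0 and 78 without Dex and 2 and 81 with Dex. With each library brought to a sum of 1000000 they were 45 higher and 25 lower, 17 and 57, 42 and 27, and 25 and 42. The direction in WT and without Dex was therefore not settled, while more members were lower than higher in KO and with Dex under each of the 3 scalings. A fit of the WT groups alone called 30 members instead of 61, and the WT median turned to -0.03 without the shallow day 0 library and to -0.004 without the first day 6 library.

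Among the members that rose in WT were Rps19, a small-subunit protein whose gene is mutated in Diamond-Blackfan anaemia, and Rpl39, a small protein at the exit of the peptide tunnel. Rps19 stood at 777 and 1017 FPKM at day 0 and at 1268 and 1241 FPKM at day 6, a log2 change of 0.50 ± 0.07 (limma adjusted p = 1.39e-06). The groups did not overlap, but the day 0 libraries differed from each other by more than the higher of them differed from day 6. Rpl39 had 416 and 384 FPKM at day 0 and 551 and 562 FPKM at day 6, a log2 change of 0.48 ± 0.04 (limma adjusted p = 3.82e-09). Rpl31 and Rpl36a of the large subunit followed with log2 changes of 0.44 and 0.34. In KO the 4 largest rises were in Rps12l1, Rps14, Rps25 and Rpl41. Of these Rps14 kept its direction under median-of-ratios rescaling (0.22 as deposited, 0.06 and not called when rescaled), while Rps25 (0.13) and Rpl41 (0.12) turned to -0.03 and -0.04. Rps12l1 is a pseudogene row at 0 in both KO day 0 libraries and at 8.45 and 10.7 FPKM at day 6, and within groups it ran as far as 0 and 7 FPKM in WT day 6, so it is not interpreted further.

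Paralogues of the standard proteins showed the largest changes. Rpl10l, an intronless autosomal relative of the X-linked Rpl10 (chromosome 12), had 90.7 and 92.1 FPKM in WT at day 0, 25.7 and 25.2 FPKM at day 2, 2.32 and 2.75 FPKM at day 4 and 2.42 and 2.67 FPKM at day 6. In KO it went from 135 and 134 FPKM at day 0 through 34.1 and 36.5 FPKM and 2.41 and 2.45 FPKM to 1.47 and 1.26 FPKM. The log2 changes from day 0 to day 6 were -4.71 ± 0.08 in WT and -5.84 ± 0.08 in KO (limma adjusted p = 1.06e-20 and 2.84e-22). It fell at each step up to day 4 in both lines. Its X-linked relative Rpl10, by contrast, held 1915 and 1776 FPKM at day 0 in WT and 1618 and 1637 FPKM at day 6.

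Rpl39l, the relative of Rpl39 (chromosome 16), fell in the same way. Its FPKM in WT were 122 and 110 at day 0, 36.81 and 37.98 at day 2, 3.11 and 3.17 at day 4, and 2.88 and 2.51 at day 6, a log2 change of -4.99 ± 0.15 (limma adjusted p = 8.79e-17). In KO they were 109 and 111 at day 0, 13.4 and 13.3 at day 2, 2.43 and 2.21 at day 4, and 0.95 and 0.74 at day 6. The 2 lines overlapped at day 0 and were apart from day 2 on. The KO against WT log2 change at day 2 was -1.42 ± 0.15 (limma adjusted p = 9.53e-08), and at day 6 it was -1.002 ± 0.147 (limma adjusted p = 6.41e-06). The muscle paralogue Rpl3l was low throughout, at 1.38 and 1.89 FPKM in WT day 0 libraries, 3.67 and 3.48 FPKM in KO day 0 libraries and at most 0.43 FPKM in every day 6 library. Its log2 changes to day 6 were -1.06 ± 0.14 in WT and -2.10 ± 0.14 in KO (limma adjusted p = 1.51e-06 and 5.47e-11).

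Rps4l, a retrocopy of the X-linked small-subunit gene Rps4x (chromosome 6), was listed as a transcribed pseudogene and reached levels near those of standard members. In WT it had 1016 and 1088 FPKM at day 0, 1076 and 1081 FPKM at day 2, 380 and 381 FPKM at day 4, and 148 and 150 FPKM at day 6. KO libraries kept more of it, with 1180 and 1185 FPKM at day 0, 1265 and 1244 FPKM at day 2, 837 and 841 FPKM at day 4, and 600.4 and 607 FPKM at day 6. The KO against WT difference thus widened to a log2 change of 2.01 ± 0.03 at day 6 (limma adjusted p = 5.67e-21), the largest change of a called member in that comparison. Without Dex it stood at 435 and 458 FPKM at day 6, and with Dex at 341 and 330 FPKM, so that the 4 cultures did not overlap. The log2 changes at day 6 were -0.44 ± 0.03 for no Dex against KO and -0.41 ± 0.03 for Dex against no Dex (limma adjusted p = 2.75e-10 and 1.13e-09). Rps4x held 1839 and 1802 FPKM in WT and 1725 and 1714 FPKM in KO at day 6. Reads of such a near copy can be split between the genes, and the authors' handling of them is not given in the sources used here.

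Rpl22l1, the paralogue of Rpl22 (chromosome 3), did not fall with differentiation in WT, where it had 166 and 188 FPKM at day 0, 140.5 and 148 FPKM at day 2, 231 and 247 FPKM at day 4, and 219 and 224 FPKM at day 6. KO stood lower from day 2 on, with 123 and 126 FPKM at day 2, 149 and 139 FPKM at day 4 and 144 and 142 FPKM at day 6. At day 2 the KO against WT log2 change of Rpl22l1 was -0.21 ± 0.05 (limma adjusted p = 0.00109), followed by -0.73 ± 0.05 at day 4 and -0.63 ± 0.05 at day 6 (limma adjusted p = 1.71e-10 and 9.23e-10). The no Dex libraries reached 291 and 292 FPKM at day 6, a log2 change of 1.02 ± 0.05 against KO (limma adjusted p = 2.77e-12), which was the largest called rise in that comparison. At day 2 Dex libraries held 199.6 and 204 FPKM and no Dex libraries 129 and 128 FPKM, a log2 change of 0.64 ± 0.05 (limma adjusted p = 5.86e-09). The groups named in these comparisons did not overlap. Rps27l and Rpl7l1 moved less. Rps27l, a paralogue of Rps27 and a p53 target, had 569 and 624 FPKM at day 0 and 536 and 550 FPKM at day 6 in WT, and 953 and 935 FPKM falling to 617 and 604 FPKM without Dex. Rpl7l1, an assembly factor related to Rpl7, changed by -0.27 in WT and -0.76 in KO from day 0 to day 6 on the log2 scale.

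**Figure D3:**
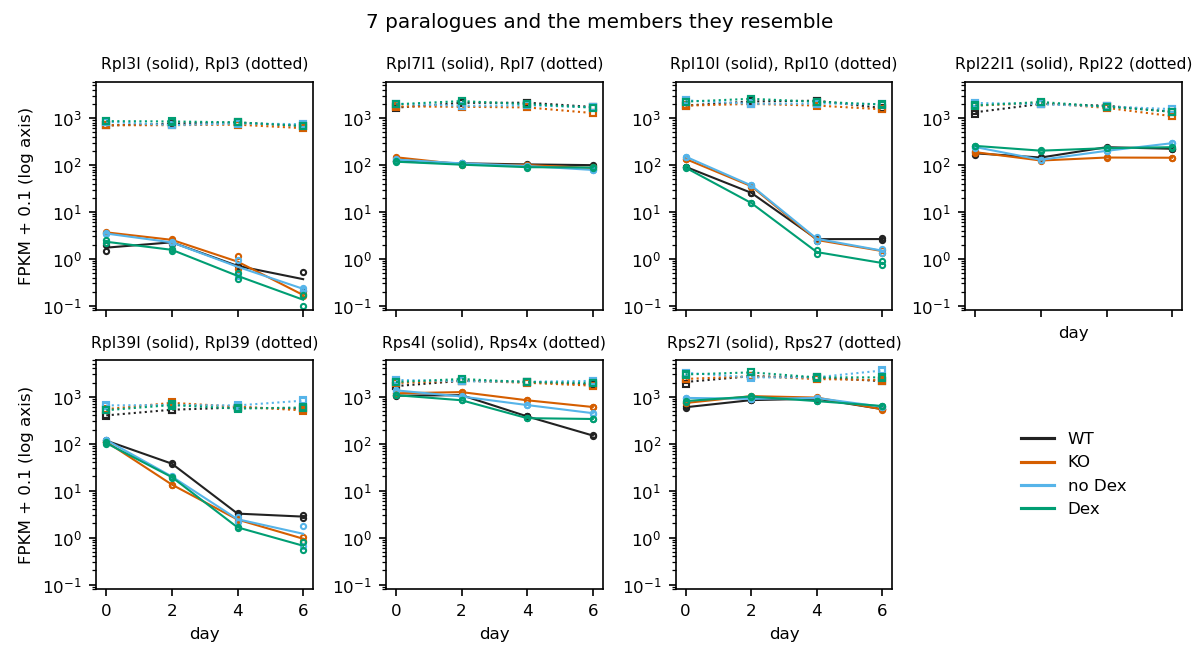
FPKM + 0.1 on a log axis by day for 7 paralogues (solid, circles) and the members they resemble (dotted, squares), with 1 symbol per library and lines through group means. Rpl10l and Rpl39l fell from about the level of 100 FPKM to near 1 FPKM while Rpl10 and Rpl39 stayed at 384 FPKM or above in every library, and Rps4l separated the 4 cultures at day 6.

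KO against WT changed sign over the days. At day 0, 66 members were called higher and 3 lower, with a median of 0.14 (all genes 18.4% higher, 29.8% lower). At day 2, 23 were higher and 35 lower with a median of -0.05 (all genes 37.5% higher, 21.3% lower). Day 4 had 5 higher and 62 lower with a median of -0.16 (all genes 36.5% higher, 24% lower), and day 6 had 13 higher and 53 lower with a median of -0.13 (all genes 30.9% higher, 34.2% lower). More members were called lower than higher from day 2 on under each of the 3 scalings. After median-of-ratios rescaling the splits were 68 higher and 0 lower at day 0, 13 and 57 at day 2, and 3 and 72 at day 4. Brought to a sum of 1000000 they were 44 and 12, 25 and 33, and 12 and 43. The day 0 count rested on the spread of other groups. With the WT and KO day 0 libraries fitted alone, 10 members were called, all higher, and with the shallow WT library left out of the fit of all groups 58 were higher and 3 lower. The largest called rise at day 0, in Rps15a (a small-subunit protein), showed the same limit. It had 430 and 638 FPKM in WT and 936 and 979 FPKM in KO, a log2 change of 0.87 ± 0.12 (limma adjusted p = 6.18e-06) that was 0.58 without the lower WT library and had an adjusted p of 0.0794 in the fit of the day 0 groups alone.

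At day 6 the median of KO against WT was lower for large-subunit than for small-subunit genes, a difference that was not tested. The median was -0.19 over the 53 large-subunit and stalk genes and -0.01 over the 36 small-subunit genes. Rpl24, which bridges the 2 subunits, had 927 and 1000 FPKM in WT and 621 and 644 FPKM in KO, a log2 change of -0.61 ± 0.04 (limma adjusted p = 1.31e-10) with no overlap. Apart from it the largest falls were those of Rpl39l, Rpl22l1 and Rpl10l (-0.58). Among the members that rose against the majority were Rps4l, Rpl41, Rplp2 and Rps21. Beside that of Rps4l the rises were 0.23 for Rpl41, 0.22 for Rplp2 and 0.22 for Rps21. Rpl13 lies on chromosome 8, whose 858 tested genes had medians of KO against WT that exceeded those of other chromosomes by 0.05, 0.16, 0.28 and 0.40 at days 0, 2, 4 and 6. For day 6 against day 0 the chromosome 8 median differed from that of other chromosomes by -0.283 in WT and 0.047 in KO. That difference was -0.041 without Dex and 0.025 with Dex. Rpl13 changed by -0.13 at day 4 and 0.18 at day 6. The part of this chromosome in the values of Rpl13 was not tested.

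No Dex against KO shares the KO libraries with the comparison above, and the overlap of the 2 is not given as a result. More members were called higher than lower at days 0, 4 and 6. At day 0, 81 were called higher and 1 lower with a median of 0.34 (all genes 19.3% higher, 29.8% lower). At day 2 there were 5 higher and 28 lower with a median of -0.05 (all genes 14.8% higher, 22.2% lower), but with 1 KO or 1 no Dex library of day 2 left out the calls numbered as few as 18 or 20 in all, and the split was 10 and 12 after median-of-ratios rescaling and 8 and 14 at a sum of 1000000. Day 4 had 54 higher and 1 lower, a median of 0.11 (all genes 9.66% higher, 17% lower), and day 6 had 80 higher and 2 lower, a median of 0.50 (all genes 21.1% higher, 27.9% lower). The median of all tested genes at day 6 was -0.01, and under the 3 scalings the members' median was 0.50, 0.51 and 0.38. The median was 0.51 over small-subunit genes and 0.50 over large-subunit and stalk genes.

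Rps28, a small-subunit protein with a short mRNA, had 1313 and 1426 FPKM in KO and 2378 and 2466 FPKM in no Dex at day 6, a log2 change of 0.82 ± 0.05 (limma adjusted p = 6.81e-11). Rps15a had 685 and 726 FPKM in KO and 1155 and 1249 FPKM in no Dex, a log2 change of 0.77 ± 0.12 (limma adjusted p = 2.22e-05). Rpl17, a protein near the peptide exit tunnel, had 1211 and 1209 FPKM in KO and 2079 and 2099 FPKM in no Dex, a log2 change of 0.79 ± 0.02 (limma adjusted p = 2.27e-15). In each of these 3 genes both no Dex libraries lay above both KO libraries. Rpl31 (0.64) and Rps14 (0.52) rose too, while the stalk protein Rplp0 had a log2 difference of 0.04 ± 0.03 that was not called. Against the majority Rps4l fell, and so did Rpl7l1 by 0.13 on the log2 scale. At day 0 the largest rises after the pseudogene row Rps12l1 (0 in both KO libraries, 16.2 and 2.68 FPKM without Dex) were in Rps10 (0.53), Rps28 (0.50) and Rps13 (0.49), all of the small subunit. Rpl7l1 was the single member called lower then, by -0.16. Fragments were shorter in no Dex day 6 libraries (284 to 285 nt) than in KO day 6 libraries (292 to 295 nt), and with 1 fragment length applied to all libraries 80 members were again higher and 2 lower, with a median of 0.52 and a log2 change of 0.90 in Rps28.

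Dex against no Dex also changed sign between days, within 1 line. At day 0, 1 member was called higher and 60 lower with a median of -0.13 (all genes 27.3% higher, 16.1% lower). At day 2, 77 were higher and 3 lower with a median of 0.26 (all genes 12.7% higher, 31.5% lower). Day 4 had 34 higher and 13 lower with a median of 0.03 (all genes 18.3% higher, 21.9% lower), and day 6 had 2 higher and 66 lower with a median of -0.20 (all genes 23.8% higher, 19% lower). The day 0 split was 0 and 75 after median-of-ratios rescaling and 13 and 26 at a sum of 1000000, and the splits of the other days stayed within 10 percentage points. At each day the libraries without Dex are shared with the comparison against KO.

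At day 6 the 4 largest falls were in small-subunit genes, Rps28, Rps29, Rps15a and Rps27. Rps28 had 2378 and 2466 FPKM without Dex and 1603 and 1606 FPKM with it, a log2 change of -0.59 ± 0.05 (limma adjusted p = 1.26e-08). Rps29, a zinc-binding protein, changed by -0.50 ± 0.05 and Rps27 by -0.49 ± 0.05 (limma adjusted p = 1.54e-07 and 3.57e-07). Rps27 had 3600 and 3647 FPKM without Dex and 2547 and 2611 FPKM with it, while WT libraries held 2124 and 2172 FPKM. The 13 members with transcripts of at most 500 nt had a median of -0.28 and the other 76 a median of -0.18, and the 997 other tested genes that short had a median of 0. Fragments averaged 297 nt in Dex and 284 to 285 nt in no Dex day 6 libraries. With 1 fragment length for all libraries the members' median was -0.24 instead of -0.20. Rps15a changed by -0.50 ± 0.12 (limma adjusted p = 0.00215), and Rpl7l1 (0.17) and Rps2 (0.07) were called higher. Rps2 turned to -0.03 when its pseudogene rows were added to it.

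At day 2 the rise with Dex was spread over both subunits, with medians of 0.25 for small-subunit and 0.26 for large-subunit and stalk genes. The 3 members called lower were Rpl10l, Rps4l and Rpl41. Rpl10l had 36.7 and 36.5 FPKM without Dex and 15.3 and 15.6 FPKM with it, a log2 change of -1.20 ± 0.08 (limma adjusted p = 7.21e-10), and Rps4l changed by -0.27. Rpl41 changed by -0.11 as deposited and by 0.01 after median-of-ratios rescaling. At day 4 Rpl10l (-0.64), Rps4l (-0.93), Rpl39l (-0.39), Rpl41 (-0.32) and Rpl29 (-0.25) were called against the majority, and at day 0 Rpl10l changed by -0.77, Rpl3l by -0.45, Rpl41 by -0.42 and Rps28 by -0.38. Rpl10l was thus called lower with Dex at each of the 4 days, with -0.48 ± 0.08 at day 6 (limma adjusted p = 4.92e-05). By then its level was very low. Its means with and without Dex were 1.295 and 2.58 FPKM at day 4, and 0.715 and 1.395 FPKM at day 6. The single member called higher at day 0, Rpl3 (0.05), turned to -0.04 after median-of-ratios rescaling.

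**Figure D4:**
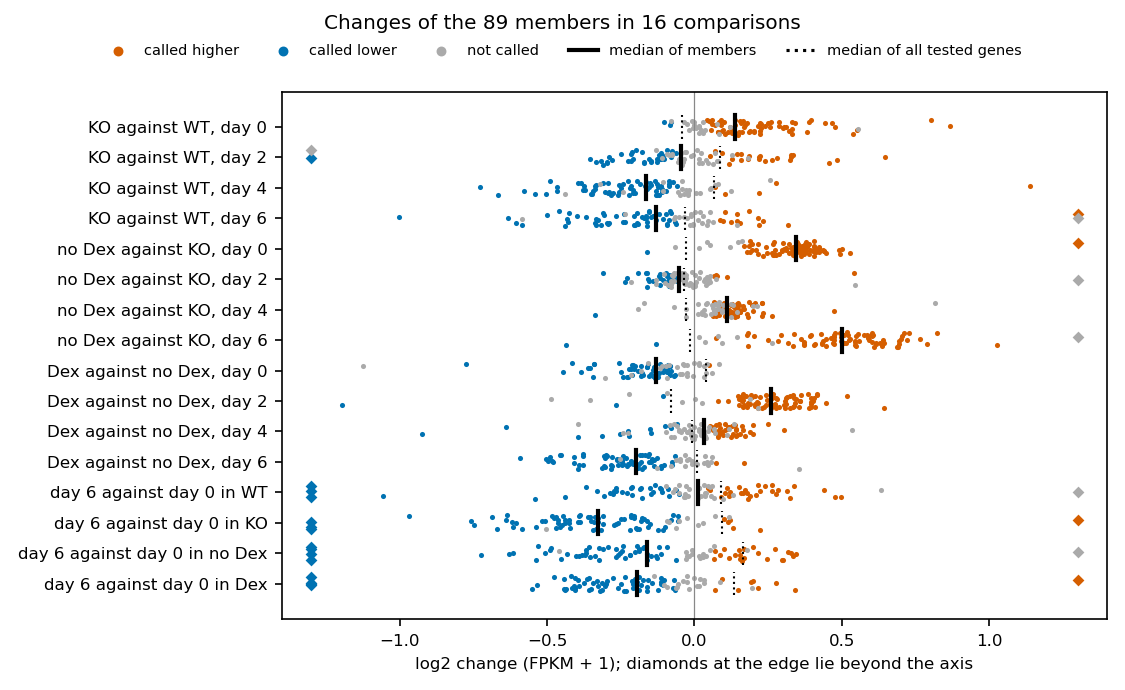
Log2 changes of the 89 members in 16 comparisons, coloured by call, with the median of members (solid bar) and of all tested genes (dotted bar); 25 values beyond ±1.3 are drawn as diamonds at that limit. At days 0 and 6 the members of no Dex against KO lie above 0 (medians 0.34 and 0.50), while those of Dex against no Dex lie above 0 at day 2 (0.26) and below it at day 6 (-0.20).

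The change from day 0 to day 6 was compared between cultures by the interaction term of the same fit. Between KO and WT, 2 members were called with a higher and 65 with a lower term, with a median of -0.30 (all genes 31.1% higher, 25.8% lower). Rps4l had the larger of the 2 higher terms, and 64 members were lower after median-of-ratios rescaling and 59 at a sum of 1000000. Between Dex and no Dex, 10 were higher and 32 lower with a median of -0.09 (all genes 22.7% higher, 25.9% lower). That split was 20 and 16 after median-of-ratios rescaling and 6 and 51 at a sum of 1000000. The largest called higher terms were in Rps2 (0.44), Rpl29 (0.35), Rpl7l1 (0.32), the stalk protein Rplp0 (0.32) and Rpl10l (0.29), of which Rpl10l turned to -0.09 with a pseudocount of 0.1.

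Other genes of the ribosome and its supply did not all move with the members. From day 0 to day 6, ribosome biogenesis genes fell in every culture, with 30 of 32 tested genes called lower in WT (median -0.71), 31 in KO with 1 higher (-1.06), and 32 in each of no Dex (-1.05) and Dex (-1.04). Examples in WT were Rrp9, a U3 snoRNP protein (-1.404), Tcof1 (-1.18), Heatr1 (-1.13) and Nob1, which trims the small-subunit RNA (-1.10). Genes of RNA polymerase I fell as well, 10 of 14 in WT and 11 in KO with 2 and 1 higher, among them the initiation factor Rrn3 (-1.36 in WT, -1.23 in KO) and Ubtf (-1.14 and -1.21). Genes of the mitochondrial ribosome had 47 of 82 called lower and 15 higher in WT (median -0.19) and 57 lower and 14 higher in KO (-0.40). Of 16 mTOR and Myc regulators, 9 were lower and 5 higher in WT, with Eif4ebp1, the translational repressor 4E-BP1 (-1.78), Myc (-1.29), Larp1 (-0.94) and Larp4 (-0.91) falling most.

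In no Dex against KO at day 6, Fau (0.70), Rpl36al (0.40) and Rack1 (0.25) were called higher, as were 12 of 16 genes for elongation factors and other TOP mRNAs with 2 lower, including Eif3e (0.51), Eef1b2 (0.44), Tpt1 (0.43) and Eif3k (0.41). Ribosome biogenesis genes had 18 of 32 lower and 5 higher there (median -0.13), with Rrs1 (-0.96) and Bysl (-0.71) lower. Myc changed by -0.96 and Larp1 by -0.48. The mitochondrial ribosome had 46 of 82 higher and 9 lower (0.17). With Dex at day 2, 12 of the 16 elongation factor and TOP genes were higher and 2 lower, 3 of the 4 other ribosome genes were higher and 1 lower, and mTOR and Myc regulators had 10 of 16 lower and 1 higher, among them Mtor (-0.53) and Mycn (-0.32). RNA polymerase I genes had 9 of 14 lower and 2 higher. At day 6, 3 of the 4 other ribosome genes were lower with Dex and 1 higher, with Fau at -0.28, while Myc (0.68) and Mycn (0.60) were higher. In KO against WT at day 6, 2 of the 4 other ribosome genes were called higher and 2 lower (median 0.15), with Fau among the lower (-0.12). Whether any of these genes bears on the members was not tested.

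**Figure D5:**
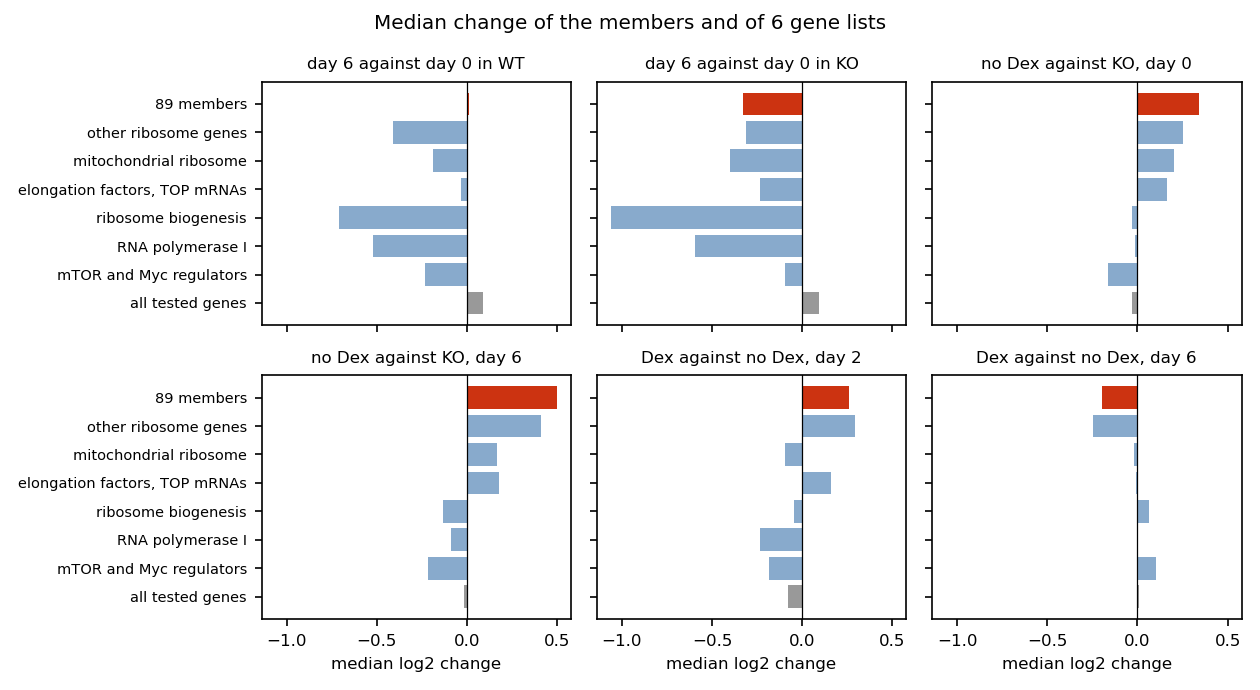
Median log2 change of the 89 members (red), of 6 gene lists of the ribosome and its supply (blue) and of all 16276 tested genes (grey) in 6 comparisons. Ribosome biogenesis lies at -0.71 and -1.06 in day 6 against day 0 of WT and KO while the members lie at 0.01 and -0.33, and their bar reaches 0.50 where no Dex is set against KO at day 6.

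Cell type markers also moved with day and culture. The summed FPKM of 9 stem cell genes ran from 4371 to 4643 across day 0 libraries, and at day 6 from 455 to 470 in WT and from 240 to 276 in the other cultures, with none of the 9 at 0. Eye field genes, 8 in all, summed to 783 and 817 FPKM in WT at day 6, 322 and 324 FPKM in KO, 365 and 366 FPKM without Dex, and 575 and 577 FPKM with Dex. In KO against WT at day 6, 6 of these 8 were called lower and 1 higher, with a median log2 change of -4.22. The KO sum was mostly Otx2 and Pax6, with means of 203.1 and 111.7 FPKM, against 104.8 and 110.1 FPKM in WT. Lhx2 and Rax had means of 4.97 and 0.3 FPKM in KO, against 234 and 118.2 FPKM in WT. The summed FPKM thus hides how far most of these genes differed. Neuron markers, 5 in all, summed to 46.0 and 48.3 FPKM in WT at day 6 and to 305 and 308 FPKM in KO, 248 FPKM without Dex and 149 and 150 FPKM with Dex, and all 5 were higher in KO against WT. The same sum already ran from 296 to 340 FPKM across the day 0 stem cell libraries, so it does not measure neurons alone. From day 0 to day 6 in WT, 3 of the 5 were called lower and 2 higher. Markers of extraembryonic endoderm, 6 in all, summed to 66.9 and 67.0 FPKM in WT at day 6 and to between 8.69 and 11.9 FPKM in the other cultures, and all 6 were lower in KO against WT. The cycling genes, 7 in all, summed to 1295 and 1311 FPKM in WT and to between 1055 and 1171 FPKM in the other cultures at day 6. The part of the cell makeup in the members' changes was not tested.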

How the data were processed

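Per the submitters' processing notes, STAR, Cuffdiff and the mouse build mm10 were used, with no role or version given in the sources used here. The authors deposited FPKM values per gene, 1 column per library, and all 32 columns were matched to samples by their labels (0 were left unmatched). Depth and fragment length of each library were chosen so that its low values came closest to whole fragments. With that choice 85.8% to 88.8% of the same low values lay within a tolerance of 0.2 fragments. Evenly spread values would give 40% without such a fit, and the level by chance after the fit was not estimated. Genes with at least 1 FPKM in at least 2 libraries were tested with limma 3.58.1 (R 4.3.3) on log2(FPKM + 1), as 16 group means with 16 residual degrees of freedom, a mean-dependent prior and Benjamini-Hochberg adjustment over all tested genes, two-sided. The script was checked on simulated data. Alternatives changed the pseudocount, the filter, the scaling, the groups fitted, a replicate block and single libraries. Those with 1 fragment length, summed pseudogene rows or protein-coding members were chosen after seeing the data. The text names the 7 paralogues and their relatives, the 5 highest members, the 4 largest called rises and falls with non-overlapping libraries in the main comparisons, up to 5 called members against the majority, and up to 4 genes of each list, with further members chosen after their values were seen. Members and lists were chosen with earlier results of these data known. Some items that these rules would name are not reported here.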

Additional observations from a re-analysis of the deposited data

Results flagged for a closer look

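By the interaction term of limma, cultures differed in how members changed until day 6. For KO against WT, 2 members were called with a higher and 65 with a lower term (all genes 31.1% higher, 25.8% lower). Among the paralogues the terms were -1.04 for Rpl3l, -0.32 for Rps27l, -0.92 for Rpl39l, -0.72 for Rpl22l1, -1.14 for Rpl10l and -0.49 for Rpl7l1, while Rps4l had a term of 1.84. At day 6 Rpl3l, Rpl39l and Rpl10l had means of 0.27, 2.695 and 2.545 FPKM in WT. In KO their means were 0.07, 0.845 and 1.365 FPKM. At such low values changes on this scale come out too small, which limits what their terms show.

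For Dex against no Dex, 10 members were called with a higher and 32 with a lower term (all genes 22.7% higher, 25.9% lower). The split was 20 higher and 16 lower after median-of-ratios rescaling. With each library brought to the same sum it was 6 higher and 51 lower. Which direction held more calls thus depended on the scaling. Rps27l had a term of 0.28, Rpl22l1 of -0.37, Rpl10l of 0.29 and Rpl7l1 of 0.32. With a pseudocount of 0.1 the term of Rpl10l was -0.09. Groups of 2 libraries allowed no test for single libraries that stand apart.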

How the results depend on the processing

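Over the alternatives that kept all libraries, 176 of the recomputed counts of called members stayed within 1.5 times the reported count and 4 moved further. Of the medians 149 moved by less than the spread between duplicates, 28 moved more and 3 reversed, and of the changes of named members 1033 kept direction and call, 58 lost the call and 11 reversed. With single libraries left out, 2 further counts moved by over 1.5 times, 1 further median moved, 2 reversed, and 91 recomputed changes of named members lost the call. The cause was not tested.

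After median-of-ratios rescaling the members' medians were -0.163 (day 2), -0.271 (day 4) and -0.093 (day 6) in KO against WT. They were 0.476 (day 0), -0.019 (day 2) and 0.155 (day 4) for no Dex minus KO, and -0.213 (day 0) and 0.374 (day 2) for Dex minus no Dex. The day 6 minus day 0 medians were -0.16 (WT), -0.488 (KO), -0.442 (no Dex) and -0.406 (Dex), and the Dex interaction had -0.016. Brought to a sum of 1000000 they were 0.07 (day 0) and -0.082 (day 4) for KO minus WT, 0.167 (day 0), -0.022 (day 2), 0.071 (day 4) and 0.38 (day 6) for no Dex minus KO, and -0.039 (day 0) and 0.184 (day 2) for Dex minus no Dex, with 39 members called at day 0. The day 6 minus day 0 medians were then 0.086 (WT), -0.182 (KO), 0.042 (no Dex) and -0.071 (Dex), and the interactions -0.229 (KO) and -0.166 (Dex).

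Fitted alone, the compared groups gave 10 called members for KO minus WT at day 0, 16 for no Dex minus KO at day 2 and 30 for day 6 minus day 0 in WT. With 1 fragment length the medians were 0.18 in KO against WT at day 0, -0.24 for Dex minus no Dex at day 6 and -0.35 in the KO interaction. Over the 83 protein-coding members the median of day 6 against day 0 in WT was -0.017.

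Single members reversed as follows. With a pseudocount of 0.1 the Dex interaction of Rpl10l was -0.094. After median-of-ratios rescaling Rpl3 was -0.035 for Dex minus no Dex at day 0 and Rpl41 was 0.01 at day 2, Rps25 was -0.031, Rpl41 -0.042 and Rps10 -0.046 from day 0 to day 6 in KO, Rps20 was -0.002 and Rps21 -0.037 in KO against WT at day 4, and Rps19 was -0.013 from day 0 to day 6 with Dex. At a sum of 1000000 Rplp0 was -0.082 for no Dex minus KO at day 6. Summed with its pseudogene rows Rps2 was -0.026 for Dex minus no Dex at day 6.

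With 1 library left out, the median of day 6 against day 0 in WT ran from -0.03 to 0.011, that of KO against WT at day 4 from -0.196 to -0.153, and the called members of no Dex minus KO at day 2 from 18 to 47. That WT median was -0.03 without the first day 0 library and -0.004 without the first day 6 library, and those calls numbered 18 without the second KO library and 20 without the second no Dex library of day 2. Over all tested genes, duplicates with the same number did not deviate together across groups (r from -0.09 to 0.13, median 0, 120 group pairs). Over the members alone r ran from -0.92 to 0.99 (median -0.09). A single row with a large difference between duplicates, such as Rps12l1, can set such an r. These values therefore cannot show whether the members deviated together. The labels do not say that a number marks a shared culture, and the samples are not treated as paired. A replicate block gave 70 called members in KO against WT at day 0 and moved no count of called members by over 1.5 times. Depth limits chiefly the members below 100 FPKM.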
